A study of Mus musculus with 24 samples.

Results

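The histone acetylation and deacetylation genes were looked up among the peaks of a STAU2 RIP-seq study of embryonic mouse cortex. The set holds the enzymes that add or remove acetyl groups on histones and the core partners of these enzymes. Members were the protein-coding genes of GENCODE vM21 on GRCm38 whose symbol begins with Kat or Sirt or Ing and a digit, with Kansl, Hdac, Ncor, Sin3 or Brpf, or equals Crebbp, Ep300 or Trrap. This gave 44 of 21992 protein-coding gene symbols. STAU2 RNA immunoprecipitates (RIP) and input lysates were sequenced on 4 embryonic days (E11.5, E13.5, E15.5, and lastly E17.5), with 3 RIP and 3 input libraries per embryonic day and 24 libraries in all. Each replicate pooled the cortices of a litter, and the labels used here name no strain, genotype or treatment. The RIP used a monoclonal antibody against STAU2, a double-stranded RNA-binding protein known for carrying messenger RNAs in neurons and neural progenitors. The deposited data are 8 peak lists, 1 per day and strand, in mm10 coordinates, and each pair of lists stands for all 6 libraries of its day.

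Acetyltransferases place acetyl groups on lysines of histone tails, which loosens chromatin and recruits bromodomain proteins. Deacetylases remove them, mostly inside corepressor complexes such as NCoR and SIN3. In the developing cortex the balance of both is known to bear on the proliferation of progenitors and on neuronal differentiation, and Kat6b mutant mice have a reduced cerebral cortex.

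A gene was counted on a day when a same-strand peak overlapped one of its exons by 1 bp or more. Of the 44 genes, 35 (79.5%) had such a peak on at least 1 day, beside 30.1% of all protein-coding genes. The 35 genes carried 142 peaks, with a median width of 91.5 bases and a range of 48 to 4685 bases. By day, 9 genes were listed at E11.5 (20.5%, 95% interval 9.8-35.3, beside 9.06% of all protein-coding genes). At E13.5 there were 20 (45.5%, 30.4-61.2, beside 11.7%). At E15.5 there were 27 (61.4%, 45.5-75.6, beside 19.8%), and at E17.5 there were 16 (36.4%, 22.4-52.2, beside 13.5%). These exact (Clopper-Pearson) intervals account for counting error only. On every day the share of the 44 genes lay above that of all protein-coding genes, and both were highest at E15.5, the day with the longest list (10265 peaks, against 5871 to 6530 on the other days). With all days cut to their 5871 strongest peaks, the counts were 8, 20, 16 and 16 genes (18.2%, 45.5%, 36.4% and 36.4%, beside 8.33%, 11.7%, 13.9% and 12.9%), so that the highest count was then that of E13.5.

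The lists carry no value per library, which leaves replicate spread and read depth unknown, and no difference between days could be tested. Nor do the lists say in which direction RIP and input differed at a peak. Whether a gene was missing on a day because fewer cells expressed it, because each cell held less of its RNA, or because less of it was bound cannot be told apart. Among genes of other cell types, none of 2 blood, 3 microglial and 3 oligodendrocyte lineage markers had a peak on any day, while 1, 4, 2 and 0 of 6 vessel and meninges markers did on the 4 days in order, and their part in the counts was not tested. Of the cortical markers, 4 of 7 neuronal ones (Map2, Tbr1, Dcx and Neurod2), the intermediate progenitor marker Eomes and 1 of 6 progenitor markers (Pax6) had a peak on some day, beside 30.1% of all protein-coding genes.

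**Figure D1:**
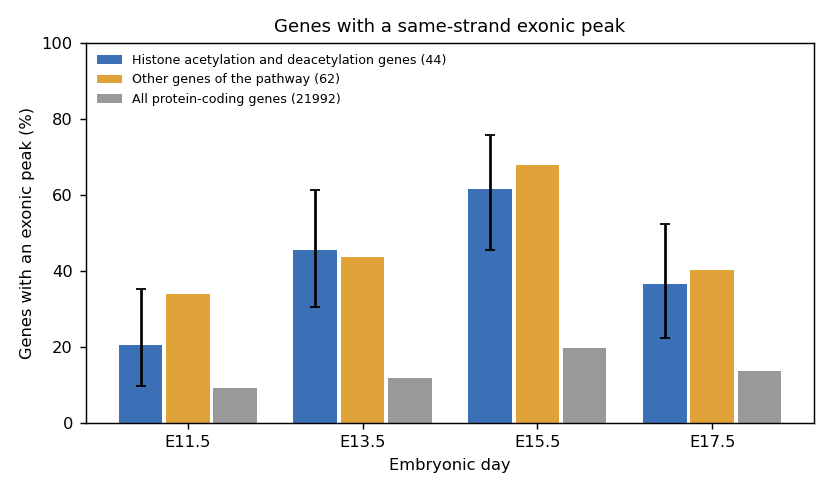
Bars give the percentage of genes with a same-strand exonic peak on each embryonic day, for the 44 histone acetylation and deacetylation genes (error bars, exact 95% binomial intervals), 62 other genes of the pathway and 21992 protein-coding genes. The 44 genes stand at 20.5%, 45.5%, 61.4% and 36.4%, above the 9.06%, 11.7%, 19.8% and 13.5% of all protein-coding genes.

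The 44 genes were long. Their median exonic length was 5358 bases (range 2398 to 20859), against 3492 for all protein-coding genes, and longer genes offer more sequence to a peak. Within bins of length the share with a peak on any day was 2 of 3 genes under 3000 bases (66.7%, beside 1693 of all 9381 genes of that length), 19 of 23 genes (82.6%, beside 35.1%) from 3000 to 6000 bases and 14 of 18 (77.8%, beside 44.7%) over 6000 bases. Expression, which also differs between genes, was not measured here. Set against only the 6609 genes with a peak on some day, the day-by-day shares lay closer together. They were 25.7%, 57.1%, 77.1% and 45.7% of the 35 genes, beside 30.1%, 39.0%, 65.9% and 45.0% of the 6609.

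Sirt2 alone had a peak on all 4 days, which is 2.27% of the 44 genes beside 1.77% of all protein-coding genes. On 3 days there were 11 genes (31.4% of the 35, beside 16.0% of the 6609), among them Hdac11, Hdac3, Ing1, Ing4, Kansl2, Kat5, Kat6a, Kat6b, Ncor1 and Sirt6. A single day listed 11 genes (31.4% beside 47.8%), and 12 had 2 days (34.3% beside 30.3%). No exonic peak was listed for 9 genes: the acetyltransferase genes Kat2b and Kat7, the complex subunit genes Ing5 and Kansl1l, the class IIa deacetylase genes Hdac4 and Hdac9, and the sirtuin genes Sirt1, Sirt4 and Sirt5.

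**Figure D2:**
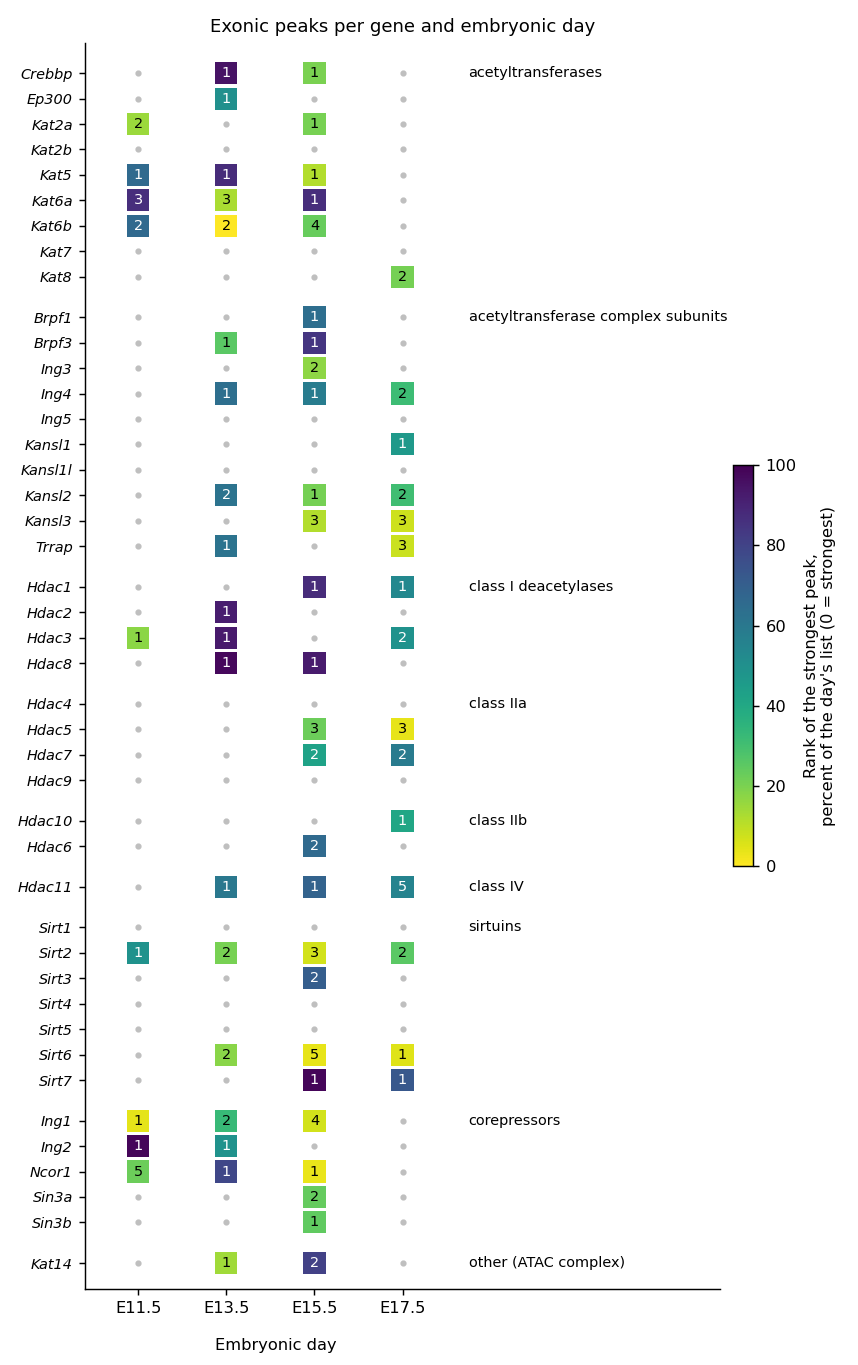
Each square is a gene with an exonic peak on that embryonic day, the digit is its number of peaks, and the colour gives where its strongest peak ranked in the day's list by the authors' p (percent, 0 is the strongest); dots mark genes with none, and 43 of the 44 genes are drawn. Kat5, Kat6a, Kat6b, Ing1 and Ncor1 fill the 3 earlier days and are empty at E17.5, while Hdac5, Hdac7, Sirt7 and Kansl3 appear at E15.5 and E17.5.

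Among the 9 acetyltransferase genes, 4 were listed at E11.5, 5 on each of the next 2 days and 1 at E17.5. The shares of all protein-coding genes were 9.06%, 11.7%, 19.8% and 13.5%, so the 1 of 9 at E17.5 lies near that share. Peaks on each day from E11.5 to E15.5 were found for Kat5, which encodes TIP60 of the NuA4 complex, and for the paralogs Kat6a and Kat6b, which encode MOZ and MORF. None of the 3 had a peak at E17.5. The single Kat5 peaks ranked 4305 at E11.5, 5152 at E13.5 and 1186 at E15.5 (chr19:5605573-5605642, CDS), so the last was its strongest. The reverse held for Kat8, which encodes MOF, the writer of acetylated H4 lysine 16: a CDS peak (chr7:127925611-127925663, rank 1332 of 6341) and a wide peak over introns (rank 6257) were listed at E17.5 only. Crebbp and Ep300 encode the related coactivators CBP and p300. Crebbp had a mostly intronic peak at E13.5 (rank 5581) and a CDS peak in its last exon at E15.5 (chr16:4085558-4085651, rank 2051), and Ep300 had a CDS peak in its last exon at E13.5 (chr15:81649261-81649317, rank 2938).

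Kat6b carried the best-ranked peak of the whole set on any day, rank 6 of 5871 at E13.5 (chr14:21670197-21670249, the authors' p = 1.04e-06). A weaker peak of E11.5 overlapped it (chr14:21670163-21670246, rank 5122), and at E15.5 the nearest peaks lay to both sides (chr14:21669848-21670000, rank 2401, and chr14:21670484-21670539, rank 8634). All 8 Kat6b peaks lay in exon 17 of 17, 6 in the CDS and 2 in the 3' UTR. Its paralog Kat6a had 3 CDS peaks at E13.5, all in its own last exon, exon 18, the strongest at chr8:22939302-22939381 (rank 731). At E11.5 it had a CDS peak in exon 16 (rank 6043) beside 2 peaks that touched an exon but lay mostly in introns, and at E15.5 a 3' UTR peak (rank 8913). Kat2a, which encodes GCN5 of the SAGA complex, had 2 CDS peaks at E11.5, of which the stronger covered codons 362 to 379 (chr11:100709411-100709464, rank 978 of 6530). It had none at E13.5 and 1 at E15.5 (chr11:100711160-100711209, rank 2129). Kat14, a component of the ATAC complex, had a peak at E13.5 that also touches an exon of Pet117 (chr2:144373588-144373635, rank 843), so it cannot be assigned to one of these genes, and 2 peaks of its own at E15.5 (ranks 8292 and 8385).

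The strongest coding peaks of Kat6b at E13.5 and Kat2a at E11.5 are shown, each the best-ranked acetyltransferase coding peak of its own day. A second Kat6b peak is shown because its edge met a peak of another day. These peaks were read 5′ to 3′ in the sense of the transcript, from GENCODE vM21 transcripts on GRCm38. Capitals mark bases paired in the predicted minimum free energy fold. The first Kat6b peak covers codons 1648 to 1665 and had 22.6% of its bases paired (-3.6 kcal/mol, 49.1% GC). The second covers codons 1384 to 1406 (chr14:21669405-21669471, E13.5), shared only 2 bases with a peak of E15.5 (chr14:21669348-21669406), and had 41.8% paired (-8.4 kcal/mol). In Kat2a 48.1% of bases were paired (-14.6 kcal/mol, 55.6% GC).
Kat6b, E13.5, plus strand: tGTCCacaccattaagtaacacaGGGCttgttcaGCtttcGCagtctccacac
Kat6b, E13.5, second position, plus strand: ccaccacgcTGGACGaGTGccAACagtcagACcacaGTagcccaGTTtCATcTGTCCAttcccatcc
Kat2a, E11.5, minus strand: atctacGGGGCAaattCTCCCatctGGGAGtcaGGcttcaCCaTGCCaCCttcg

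Of the 10 genes for acetyltransferase complex subunits, none was listed at E11.5, and 4, 6 and 5 were on the following 3 days, beside 9.06%, 11.7%, 19.8% and 13.5% of all protein-coding genes. With 10 genes, the 0 of E11.5 lies near the share of all genes. The NSL complex, which works with MOF, was represented by Kansl2 on 3 days, Kansl3 at E15.5 and E17.5, and Kansl1 at E17.5 (chr11:104333897-104333945, 3' UTR, rank 2931). Kansl2 had a CDS peak at the same place at E13.5 (chr15:98531326-98531390, rank 3632) and E17.5 (chr15:98531326-98531375, rank 1940), and a 3' UTR peak at E15.5 (chr15:98519322-98519488, rank 2152). A processed pseudogene, Kansl2-ps, also carried peaks, and whether reads of Kansl2 and Kansl2-ps were told apart is not given in the sources, so Kansl2 values are uncertain. Kansl3 had 3 peaks on each of its days. Its strongest, at E17.5 (chr1:36343289-36343356, rank 492), was 3' UTR in one isoform and CDS in the longest, and the others lay in a 3' UTR that the longest coding isoform lacks. There, 2 positions were overlapped between days, by 65 of 67 bases and by 20 of 48 bases, with chr1:36336025-36336091 (rank 1204) and chr1:36336504-36336551 (rank 1765) at E15.5 overlapped by chr1:36335990-36336089 (rank 2431) and chr1:36336532-36336770 (rank 1571) at E17.5. Trrap, the scaffold shared by SAGA and NuA4, had a peak with its midpoint in an intron at E13.5 (rank 3633) and 3 peaks at E17.5, led by the 3' UTR (chr5:144859323-144859374, rank 520). Brpf1 and Brpf3, scaffolds of MOZ and MORF, were listed at E15.5 (rank 6577) and at E13.5 and E15.5 (ranks 1504 and 8663), with the E13.5 peak of Brpf3 in its 3' UTR (chr17:28837068-28837117). Ing3, a NuA4 subunit, had 2 peaks at E15.5, the stronger in the 3' UTR (chr6:21974557-21974606, rank 1721).

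Ing4, a reader of trimethylated H3 lysine 4 in the HBO1 complex, had a CDS peak at 1 position on 3 days: chr6:125047841-125047926 at E13.5 (rank 3755), chr6:125047816-125047870 at E15.5 (rank 6007) and chr6:125047816-125047928 at E17.5 (rank 2936). Exons of Gm44597, annotated as a processed transcript on the same strand, overlap all 4 Ing4 peaks, including a 3' UTR peak at E17.5 (rank 1998), so the peaks cannot be assigned to Ing4 alone. The E17.5 peak of Ing4, codons 175 to 212, is printed with the shared Kansl2 peak, codons 160 to 181, since these are the coding positions of complex subunits that recurred between days; capitals again mark paired bases. Ing4 had 53.1% of bases paired (-29.1 kcal/mol) and Kansl2 36.9% (-6.4 kcal/mol).
Ing4, E17.5, plus strand: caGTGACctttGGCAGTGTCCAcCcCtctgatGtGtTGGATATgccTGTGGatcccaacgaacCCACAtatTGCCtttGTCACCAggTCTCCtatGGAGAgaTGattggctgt
Kansl2, E13.5, minus strand: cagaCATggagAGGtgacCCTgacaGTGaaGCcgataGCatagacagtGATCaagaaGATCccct

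The 11 Hdac genes were listed with 1, 4, 6 and 6 genes and 1, 4, 10 and 14 peaks over the 4 days. Of all protein-coding genes 9.06%, 11.7%, 19.8% and 13.5% were listed on these days, so the single Hdac gene of E11.5 lies near that share. All 4 class I genes, which encode mainly nuclear deacetylases, had a peak on some day. Hdac1 had one at E15.5 (3' UTR, rank 9014) and one at E17.5 (CDS, rank 3372), and its paralog Hdac2 had one at E13.5 (rank 5397), a wide region of 3132 bases that is 3' UTR in a shorter isoform and intron in the longest. Hdac8 was listed at E13.5 and E15.5, near the end of both lists (ranks 5742 and 9522). Hdac3, the enzyme of the NCoR complex, had peaks at E11.5 (rank 1138), E13.5 (rank 5458) and E17.5 (ranks 3146 and 5423). The E11.5 peak is 3316 bases wide with 1.42% of them in exons.

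Class IIa deacetylases shuttle between nucleus and cytoplasm, and 2 of the 4 genes were listed, Hdac5 and Hdac7, both at E15.5 and E17.5. Hdac5 held the best-ranked peak of the whole set at E17.5 (chr11:102199050-102199405, rank 245 of 6341, the authors' p = 7.86e-05), which lies in an exon of a noncoding isoform and in an intron of the longest coding one. A second Hdac5 position was listed on both days, chr11:102206422-102206509 at E15.5 (rank 4142) and chr11:102206436-102206486 at E17.5 (rank 692), in exon 8 of 29. At E15.5 it also had the set's single 5' UTR peak (chr11:102224876-102224935, rank 2286). Hdac7 had a 3' UTR and a CDS peak on each day (ranks 4328 and 7429, then 3730 and 4265), at 4 separate places, the best relative to its list at chr15:97793483-97793532 at E15.5. Hdac6, known as the cytoplasmic tubulin deacetylase, was listed at E15.5 (ranks 6750 and 9358), and Hdac10 at E17.5 (chr15:89123857-89123931, rank 2583). Hdac11, the only class IV gene, had 1, 1 and 5 peaks from E13.5 onward, and 2 of its 3' UTR peaks of E17.5 met earlier ones at their edges. The peak at chr6:91174209-91174372 shared 7 bases with the 55-base peak of E13.5, and the peak at chr6:91173686-91173824 shared 40 with the 93-base peak of E15.5.

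Sirtuins are deacetylases that use NAD. Of the 7 genes, 1, 2, 4 and 3 were listed over the 4 days, beside 9.06%, 11.7%, 19.8% and 13.5% of all protein-coding genes. With 7 genes, the 1 of E11.5 lies near the share of all genes. Sirt2, which acts largely in the cytoplasm, had 7 of its 8 peaks in exon 16 of 16, 6 in the 3' UTR and 1 in the CDS, and 1 with its midpoint in an intron. The strongest exon 16 peaks were chr7:28788315-28788383 at E11.5 (rank 3224 of 6530), chr7:28788140-28788361 at E13.5 (rank 1210 of 5871), chr7:28788035-28788178 at E15.5 (rank 715 of 10265) and chr7:28787964-28788190 at E17.5 (rank 1624 of 6341). Each overlapped a peak of another day, and together they formed a chain over the end of the transcript. The links differed, since the strongest peaks of E13.5 and E15.5 shared 39 bases, 27.1% of the shorter, while that of E15.5 lay wholly within that of E17.5. Among the stronger 50% of each day's peaks Sirt2 was still listed on all 4 days, since its E11.5 peak stood at 49.4% of that list.

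Sirt6, a nuclear deacetylase of H3, had a CDS peak in its last exon at E15.5 (chr10:81622484-81622540, rank 375, the authors' p = 7.76e-05) that lay within the peak of E17.5 (chr10:81622468-81622602, rank 314, the authors' p = 0.000101). Its strongest peak at E13.5 lay in the 3' UTR (chr10:81621879-81622061, rank 1051) and overlapped a weaker one of E15.5 (rank 3770). Sirt7, the nucleolar member, was listed at E15.5 (rank 10107) and E17.5 (rank 4632), and the mitochondrial Sirt3 had 2 peaks in noncoding exons at E15.5 (ranks 7255 and 8841). The E17.5 peak of Sirt6, codons 272 to 317, is shown as the sirtuin coding position listed on 2 days, the E15.5 peak being a stretch of it. Capitals mark paired bases, and the peak had 58.5% GC and 56.3% of bases paired (-35.9 kcal/mol).
Sirt6, E17.5, minus strand: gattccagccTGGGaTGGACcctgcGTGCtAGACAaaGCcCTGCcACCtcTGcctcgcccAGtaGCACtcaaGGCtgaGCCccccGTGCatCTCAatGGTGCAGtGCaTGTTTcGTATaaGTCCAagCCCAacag

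All 6 corepressor genes had a peak on some day (beside 30.1% of all protein-coding genes), 3 at E11.5, then 4, 5 and, at E17.5, 1. By day the shares of all protein-coding genes were 9.06%, 11.7%, 19.8% and 13.5%, so the 1 of 6 at E17.5 lies near that share. Ncor1 encodes the HDAC3 corepressor NCoR. It had 5 peaks at E11.5, 1 on each of the next 2 days and none at E17.5. Its E13.5 peak lay in the 3' UTR (chr11:62316631-62316680, rank 4630), and the other 6 had their midpoint in the CDS or in an intron. Ncor1 was led by a CDS peak in exon 39 at E15.5 (chr11:62330009-62330111, rank 339 of 10265, the authors' p = 6.93e-05). At E11.5 its strongest was a 511-base region with 20.9% in exons (chr11:62321169-62321679, rank 1461).

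The E15.5 peak of Ncor1, codons 2030 to 2064, is printed as the leading corepressor peak of that day, with 58.3% GC and 48.5% of bases paired (-24.6 kcal/mol); capitals mark paired bases.
Ncor1, E15.5, exon 39, minus strand: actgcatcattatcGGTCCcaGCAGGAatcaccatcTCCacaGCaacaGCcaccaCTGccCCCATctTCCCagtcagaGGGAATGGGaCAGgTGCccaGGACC

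Ing1 and Ing2 encode readers of trimethylated H3 lysine 4 in the SIN3 deacetylase complexes. Ing1 held the best-ranked peak of the set at E11.5 (chr8:11561549-11561649, rank 267 of 6530, the authors' p = 3.56e-05), in the CDS of its last exon. A wider peak of E13.5 began 2 bases further on (chr8:11561551-11562046, rank 1924) and contained a peak of E15.5 (chr8:11561787-11561940, rank 5270). At E15.5 the strongest Ing1 peak lay in the 3' UTR (chr8:11562986-11563109, rank 696), and at E17.5 none was listed. Ing2 had CDS peaks at E11.5 (rank 6438) and E13.5 (chr8:47669131-47669251, rank 2888). Sin3a and Sin3b, the scaffolds, were listed at E15.5 only, by peaks of 203 to 1489 bases with midpoints in introns (ranks 2443, 2837 and 2523). Of their bases only 0.514% and 3.94% (Sin3a) and 6.92% (Sin3b) lay in exons. The Ing1 peak of E11.5 covers codons 90 to 123, with 58.4% GC and 59.4% of bases paired (-31.3 kcal/mol), and is shown as the leading peak of that day; capitals mark paired bases.
Ing1, E11.5, plus strand: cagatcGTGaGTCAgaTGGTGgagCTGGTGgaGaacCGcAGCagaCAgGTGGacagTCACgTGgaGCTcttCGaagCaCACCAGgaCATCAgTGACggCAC

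**Figure D3:**
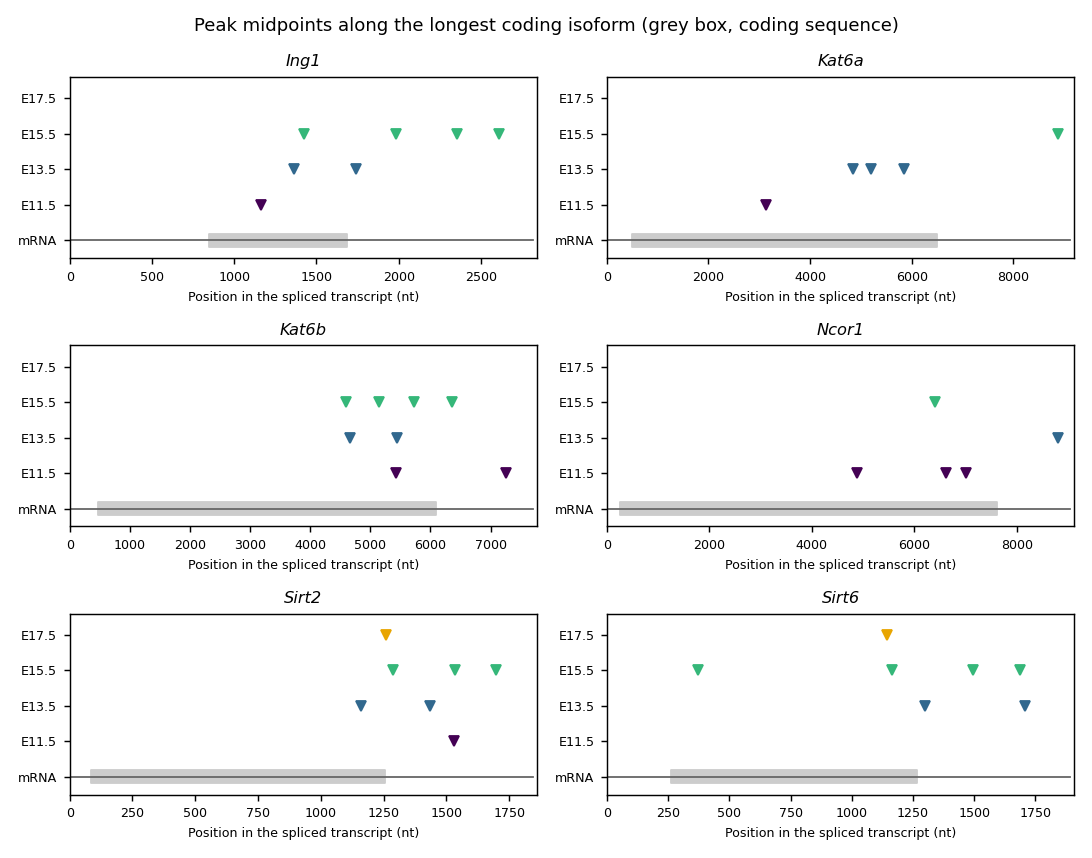
Triangles mark peak midpoints along the longest coding isoform of 6 genes (x axis, position in the spliced transcript in nucleotides; grey box, coding sequence; rows, embryonic days); peaks with midpoints outside that isoform's exons are not drawn. Kat6b peaks fall near the 3' end of the coding sequence and beyond, Ing1 peaks lie in the coding sequence and the 3' UTR, and Sirt2 peaks sit at the end of the coding sequence and in the 3' UTR.

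Taken by transcript part, peaks of the 44 genes lay more in coding sequence than exonic peaks of all protein-coding genes did. The part was read at the midpoint over all isoforms, with 3' UTR before CDS. Over all days, 62 of 142 peaks (43.7%, 95% interval 35.4-52.2) were in the CDS and 55 (38.7%, 30.7-47.3) in the 3' UTR, beside 24.3% and 52.2% of the 19355 pairs of an exonic peak and a protein-coding gene. The CDS share was 64.7% at E11.5 (11 of 17 peaks, 38.3-85.8), 55.9% at E13.5 (19 of 34, 37.9-72.8), 36.8% at E15.5 (21 of 57, 24.4-50.7) and 32.4% at E17.5 (11 of 34, 17.4-50.5). In all protein-coding genes it was 30.5%, 26.0%, 22.2% and 22.0% on the same days. The 3' UTR share was 11.8%, 32.4%, 42.1% and 52.9% for the 44 genes, beside 41.2%, 51.6%, 55.3% and 55.3%. The intervals of neighbouring days overlap. Classed by any overlap, the CDS share was 88.2%, 79.4%, 59.6% and 64.7%, beside 60.3%, 52.3%, 49.7% and 52.0%, so it was lowest at E15.5 and not at E17.5.

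Peaks of 1 gene are not independent. With 1 peak per gene and day the CDS share over all days was 41.7% (30 of 72), beside 23.8% for all protein-coding genes. Day by day it was then 55.6%, 45.0%, 33.3% and 43.8%, beside 31.3%, 25.2%, 21.7% and 20.8%, so E17.5 was about level with E13.5. Of the 55 peaks classed as 3' UTR, 8 were CDS and 6 intron in the longest coding isoform, Hdac5, Hdac10, Kansl3 and Kat5 among them. With parts taken from that isoform the shares were 47.9% CDS and 28.9% 3' UTR, beside 28.9% and 41.4%. Day by day the CDS share was then 52.9%, 61.8%, 40.4% and 44.1%, beside 35.6%, 30.2%, 26.4% and 27.1%, so it did not fall steadily. The 3' UTR share was 11.8%, 23.5%, 33.3% and 35.3%, beside 30.6%, 41.5%, 44.7% and 43.6%. At E17.5 it thus lay further below that of all protein-coding genes than with all isoforms.

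**Figure D4:**
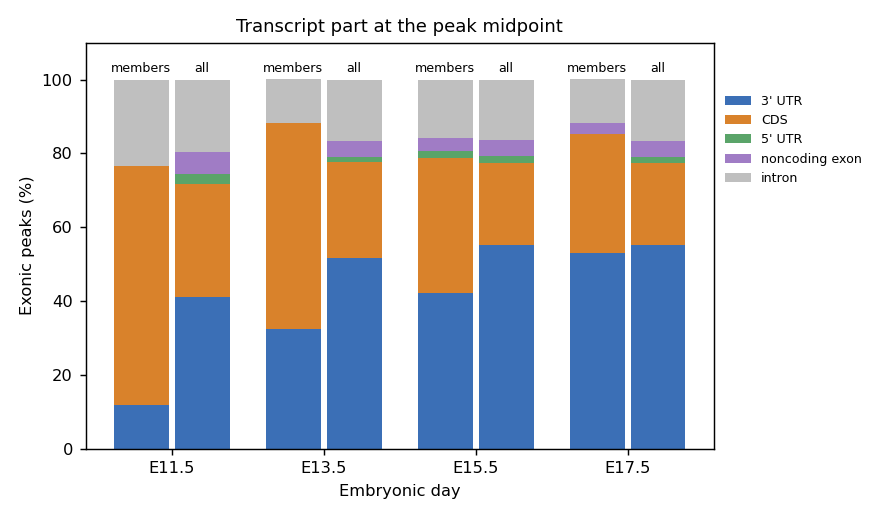
Stacked bars give the percentage of exonic peaks by transcript part at the peak midpoint on each embryonic day, for the 44 histone acetylation and deacetylation genes (left, 17, 34, 57 and 34 peaks) and all protein-coding genes (right). The CDS share of the 44 genes is 64.7%, 55.9%, 36.8% and 32.4%, beside 30.5%, 26.0%, 22.2% and 22.0%.

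From E11.5 to E13.5, 12 of the 44 genes were gained, meaning listed on the later day only (27.3%, beside 7.85% of all protein-coding genes), and Kat2a alone was lost (2.27% beside 5.18%). Only a gene listed on the earlier day can be lost. Kat2a was 1 of 9 such genes at E11.5, beside 1140 lost of 1992 protein-coding genes. Among the gained genes were Sirt6 (rank 1051) and Kat14 (rank 843), the latter by the peak that also touches an exon of Pet117. With peaks touching exons of 1 gene only, 18 genes were listed at E13.5 (40.9%, beside 11.2%) and 10 were gained in this step. From E13.5 to E15.5, 12 were gained (27.3% beside 12.1%), led by Kansl3 (rank 1204), Ing3 (rank 1721), Kat2a (rank 2129) and Hdac5 (rank 2286). In the same step 5 were lost (11.4% beside 3.97%): Ep300, Hdac2, Hdac3, Ing2 and Trrap. Taken over the genes listed at E13.5, this was 5 of 20, a lower share than the 874 of 2578 protein-coding genes. In the last step, to E17.5, 5 genes were gained (11.4% beside 5.03%), namely Trrap (rank 520), Kat8 (rank 1332), Hdac10, Kansl1 and Hdac3. In that step 16 were lost (36.4% beside 11.3%), among them Ncor1 (rank 339 at E15.5), Ing1 (rank 696), Kat5 (rank 1186), Ing3, Crebbp, Kat2a, Kat6b, Sin3a and Sin3b. Taken over the genes listed at E15.5, the losses were 16 of 27, beside 2493 of 4358 protein-coding genes. On that base the share lost was close to that of all protein-coding genes. All 5 acetyltransferase genes of E15.5 and 4 of its 5 corepressor genes were among the 16 lost, beside the same 2493 of 4358. With 5 genes each, no difference from that share was tested. Taken over genes with a peak on some day, the gains by step were 12, 12 and 5 of 35, beside 1726, 2654 and 1107 of 6609. On this base the share gained lay above that of all protein-coding genes in the first step only. With lists of equal length, 7 genes were gained and 11 lost from E13.5 to E15.5, and 9 were gained and 9 lost in the step to E17.5. The excess of losses in the last step was then not seen. The 11 lost were of 20 genes listed at E13.5, a larger share than the 5 of 20 above. With the stronger 50% of peaks the first step gave 7 gained and 3 lost of the 5 genes listed at E11.5. The last step then gave 10 lost of the 16 listed at E15.5. The low share lost in the first step was thus not seen at that setting. Gains and losses of all protein-coding genes were counted with all peaks only, so the counts under alternatives have no share beside them.

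By rank, the median peak of the 44 genes stood at 65.8% of the list at E11.5 and 68.0% at E13.5, beside 51.5% and 49.6% for all exonic peaks of protein-coding genes. It stood at 41.3% at E15.5 and 46.3% at E17.5, beside 49.2% and 49.1%. Here 0% is the strongest peak of a day, so the peaks of the 44 genes were weaker than the typical exonic peak on the first 2 days, apart from a few such as that of Kat6b, and stronger on the last 2, and no test was made of either.

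Between days, 43 of 142 peaks (30.3%) were overlapped by at least 1 bp by a peak of another day in the same gene, beside 29.8% of the pairs of peak and gene in all protein-coding genes. These made up 17 positions in 11 genes, among them 2 each in Hdac11, Kansl3, Kat6b and Sirt6, and 1 each in Hdac3, Hdac5, Ing1, Ing4, Kansl2 and Sirt2. With at least 50% of the shorter peak shared, 13 positions were left, without those of Hdac11 and Hdac3 and 1 each of Kansl3 and Kat6b, and the Sirt2 chain came apart into 2. At 1 bp that chain held all 4 days, and 4 positions held 3 days, those of Ing1 and Ing4 among them.

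Over all days, the peaks were somewhat richer in G and C than those of all protein-coding genes. For 112 peaks of 300 bases or less that lay in 1 exon, the median GC content was 54.5%, beside 50% for 14745 peaks of all protein-coding genes. The median folding energy was -22.9 kcal/mol per 100 bases, beside -20.1, and a median of 51.4% of bases was paired, beside 50.8%. Among the peaks shown above, Ing1 at E11.5 had -31.0 kcal/mol per 100 bases and Kat6b at E13.5 (rank 6) had -6.79. No test was made of these differences, and folding energy moves with GC content.

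Other genes of the same complexes were counted in the same way. Of 62 further genes, matched from a list of 63, 50 (80.6%) had a peak on some day, and day by day 21 (33.9%), 27 (43.5%), 42 (67.7%) and 25 (40.3%) did, beside 30.1% of all protein-coding genes on any day and 9.06%, 11.7%, 19.8% and 13.5% day by day, with the highest count at E15.5 as for the 44 genes. For deacetylase complexes it was 14, 13, 19 and 12 of 27 genes, and for other acetyltransferase complexes 5, 11, 19 and 9 of 31. All 4 days listed 10 of the 62, beside the single Sirt2 of the 44 and 1.77% of all protein-coding genes. Among the 10 were the deacetylase complex genes Gps2, Mbd3, Mta1, Rcor2 and Sap130, the acetyltransferase complex genes Meaf6, Msl1 and Ruvbl2, and the bromodomain gene Brd3. Gps2, a subunit of the NCoR complex, reached rank 64 of 10265 at E15.5 in the CDS (chr11:69915880-69915950), and Supt20 of SAGA rank 75 of 5871 at E13.5 in the 3' UTR (chr3:54717051-54717176). Sgf29, also of SAGA, reached rank 106 of 6341 at E17.5 (chr7:126672158-126672306). No peak was listed for 12, among them Brd1, Jade1, Jade2, Jade3, Tbl1x and Tbl1xr1.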

How the data were processed

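STAU2 RIP and input RNA of embryonic cortex was sequenced in 24 libraries, 3 per group in 8 groups. The authors deposited 8 peak lists in mm10, 1 per embryonic day and strand, each standing for 3 RIP and 3 input libraries, so replicates cannot be compared. Every deposited peak line holds a score, a signal value, a p-value and an adjusted p-value (q-value of 0.01 or less), all the authors' own. The lists have no header. Their scaling and the peak caller were not given in the sources used here. Tools named without a role in the submitters' processing notes are Cufflinks 2.2.1, bedtools 2.17.0, TopHat and TopHat2 2.0.9. Read totals are not given, so the depth is unknown.

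Peaks were assigned with Python 3.11.15 to same-strand exons of GENCODE vM21 (GRCm38, the assembly named mm10) at 1 bp or more of overlap, and ranked within a day by the authors' deposited p-value. The assignment was tested on simulated data. Genes were counted by symbol. Peaks of 300 bases or less within 1 exon were read from GENCODE transcripts and folded with RNAfold 2.7.2. Shares have exact Clopper-Pearson 95% intervals (scipy 1.17.1), which cover counting error only. No test between days was possible. The genes and lists were chosen with earlier results of these data known. Named with coordinates were genes on all 4 days, the best-ranked peaks of each day, stronger gained or lost peaks, and shared positions, with exceptions such as Hdac3. Some genes enter the counts but are not reported here singly. Sequences are the strongest coding peaks, up to 2 per day, and shared coding positions. Of 63 further pathway symbols, Mideas was unmatched. Alternatives varied overlap, threshold, peak width, list length, strand, isoforms and transcript class. A restriction to peaks touching 1 gene and bins of length were chosen after seeing the data.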

Additional observations from a re-analysis of the deposited data

Results flagged for a closer look

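Peaks inside the 44 genes but off their annotated exons were not used in any comparison above. There were 28, 18, 23 and 0 over the 4 days in order, and the first 3 counts exceed the floor of 3 counts used here. At E11.5, 17 of the 28 lay in introns of Kat2b, which had no exonic peak on any day, and the best of those 17 ranked 1046 of 6530. Ncor1 held 5, Sin3a 4, and Ep300 and Kat6b 1 each. At E13.5, 7 lay in Crebbp. At E15.5, 10 lay in Kansl1l, another gene without an exonic peak, 7 in Sirt3, 4 in Sin3a and 2 in Brpf3. Whether these came from unspliced transcripts, unannotated exons or other RNAs was not tested.

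Kansl2-ps, a processed pseudogene of Kansl2, carried 4 peaks. That of E13.5 at chr7:72673296-72673383 ranked 4 of 5871, above every peak of the 44 genes on that day, and a second of E13.5 ranked 3894. At E15.5 the ranks were 2231 and 3726 of 10265. Reads of a processed pseudogene and of its parent can be near-identical, and how the authors placed such reads is not given in the sources used here, so Kansl2 peaks and Kansl2-ps peaks are uncertain in their assignment. The other 3 pseudogenes named after members had none.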

How the results depend on the processing

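Of the values recomputed under alternatives, 146 stayed within 1.5 times the count or within the interval of the share, and 18 did not. Some could not have moved. No peak of the 44 genes was wider than 5000 bases, so leaving out such peaks could not change their values. The intervals of the daily shares are also wide, so staying within them is a weak check. With the stronger 50% of each day's peaks, 5, 9 and 16 genes were listed on the first 3 days, beside 5.17%, 6.92% and 12.6% of all protein-coding genes. That setting gave 7 gained and 3 lost from E11.5 to E13.5 and 10 lost from E15.5 to E17.5, and 17, 26 and 16 other pathway genes on the last 3 days. With lists of equal length, 16 genes were listed at E15.5, with 7 gained and 11 lost from E13.5 to E15.5, and 9 gained and 9 lost from E15.5 to E17.5. A stricter or shorter list holds fewer peaks by construction. Gains and losses of all protein-coding genes were not counted under these alternatives. Classing a peak as CDS by any overlap gave 88.2%, 79.4%, 59.6% and 64.7% of peaks, beside 60.3%, 52.3%, 49.7% and 52.0% in all protein-coding genes. Under these alternatives the shares of the 44 genes on each day stayed above those of all protein-coding genes. No paired analysis was possible because each list stands for all 6 libraries of a day and holds no value per replicate, and leaving out a replicate could not be run for the same reason.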

Other observations

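Coding peaks of the 44 genes lay in the last exon in 20 of 68 cases (29.4%) by the longest coding isoform, beside 31.2% of 5586 in all protein-coding genes. Kat6b held 6 of the 20, Kat6a and Ing1 3 each, and Ing2 and Sirt6 2 each. On the opposite strand within the 44 genes, introns included, 2 peaks were listed, both in Kat6a, at E15.5 and E17.5.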
